A study of Mus musculus with 6 samples.

Results

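Nrp1, Gpr83, Itgae, Klrg1, Izumo1r, Swap70 and Capg are genes known from expression signatures of mouse regulatory T cells (Tregs), the CD4 T cells that restrain immune responses. They were followed here as a set of 7 genes, 5 of the cell surface and 2 of the actin cytoskeleton. Every probe set that the platform annotation assigns to one of them was used, which gave 14 of the 45101 probe sets on the array. Nrp1 had 4 probe sets, Gpr83, Itgae, Swap70 and Capg had 2 each, and Klrg1 and Izumo1r had 1 each. All 7 genes were bright enough to be tested, among 10916 of the 18193 genes with a probe set of their own.

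The study measured expression on 6 arrays in 3 groups of 2. Per the labels, all cells were CD4+CD25+FoxP3+ cells sorted from spleen and lymph nodes of C57Bl/6 mice aged 8 to 11 weeks, and all mice carried the FoxP3GFP reporter. WT vehicle cells were A2AR+/+FoxP3GFP and received DMSO, KO vehicle cells were A2AR-/-FoxP3GFP and received DMSO, and WT ATL1222 cells were A2AR+/+FoxP3GFP and received 10 nM ATL1222. A2AR is a receptor for adenosine, and ATL1222 is described as a selective agonist of it. Each culture lasted 18 h. The labels do not say how many mice stood behind an array, whether mice were pooled, or whether the receptor is missing from all cells of the KO mice. Replicates are called biological with no word on separate animals, and the p-values cover the spread among these arrays alone, which may be technical.

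Binding of adenosine to A2AR raises cAMP in the cell, and in T cells cAMP acts through protein kinase A and the CREB family of transcription factors. Surface molecules of the Treg signature take part in the contact of Tregs with other cells and in their homing, and several serve as markers of Treg subsets. Nrp1 encodes neuropilin-1, a co-receptor for semaphorins and vascular endothelial growth factor that is used in mice as a marker of Tregs made in the thymus. Gpr83 encodes a G protein-coupled receptor, Itgae the integrin chain CD103, Klrg1 an inhibitory lectin-like receptor and Izumo1r a folate receptor relative also known as Juno. Swap70 and Capg act inside the cell on actin filaments.

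Because cAMP acts through CREB and Tregs depend on the forkhead factor Foxp3, RefSeq promoter windows (GRCm38.p6) were searched for the sites of both kinds of factor. The table held a window for 5 of the genes: Nrp1, Gpr83, Izumo1r, Swap70 and Capg. In each, the 250 bases before the annotated start were searched on both strands for the full cAMP response element TGACGTCA, for its core TGACG, which is contained in the full element, and for the forkhead core GTAAACA. The full element was in 0 of the 5 windows and in 1.55% of 32851 windows of the same length. The core TGACG was in 1 of 5, that of Gpr83, and in 17.8% of all windows. The forkhead core was in 1 of 5, that of Swap70, and in 3.17% of all windows. A match is only a match of letters. The window of Nrp1 is shown because Nrp1 alone lay lower with the agonist on every probe set in both replicates. Those of Gpr83 and Swap70 are shown because they held the matches, which are in capitals. The windows shown lie at chr8:128358823-128359072, chr9:14859960-14860209 and chr7:110221453-110221702, each on the plus strand and read 5′ to 3′.
Nrp1: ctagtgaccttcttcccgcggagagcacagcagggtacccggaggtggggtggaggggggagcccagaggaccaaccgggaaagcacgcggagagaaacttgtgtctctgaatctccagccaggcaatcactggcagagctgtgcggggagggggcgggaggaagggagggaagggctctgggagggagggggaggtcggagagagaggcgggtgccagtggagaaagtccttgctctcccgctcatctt
Gpr83: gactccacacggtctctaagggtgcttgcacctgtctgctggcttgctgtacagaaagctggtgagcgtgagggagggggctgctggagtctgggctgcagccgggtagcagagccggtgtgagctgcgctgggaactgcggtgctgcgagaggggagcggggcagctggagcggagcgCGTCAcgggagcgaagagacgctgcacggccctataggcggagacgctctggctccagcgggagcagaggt
Swap70: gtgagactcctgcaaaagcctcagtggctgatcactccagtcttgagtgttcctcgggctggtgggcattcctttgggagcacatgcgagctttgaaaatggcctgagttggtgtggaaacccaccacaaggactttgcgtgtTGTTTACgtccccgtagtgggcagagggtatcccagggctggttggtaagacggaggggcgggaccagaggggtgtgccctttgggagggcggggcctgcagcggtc
In the window of Gpr83 TGACG was on the minus strand and is printed as CGTCA, whose first printed base lay 71 bases before the start. In the window of Swap70 the forkhead core was on the minus strand and is printed as TGTTTAC, whose first printed base lay 107 bases before the start. In the gene table of the same assembly Gpr83 and Izumo1r are neighbours on chromosome 9 with 0 protein-coding genes between them, and Klrg1 and Capg both lie on chromosome 6.

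The arrays resembled each other closely. Across the genes tested, log2 values correlated with Pearson r from 0.957 to 0.966 between arrays of 1 group and from 0.953 to 0.970 between arrays of different groups. The labelled cell type was checked on its markers. Ikzf2, the Helios gene, had signals from 6810 to 8431, Ctla4 from 3432 to 6410 and Cd3e from 1848 to 3068. Il2ra read 416.0 to 613.1, and Cd4 read 135.6 to 487.8, lowest on WT vehicle replicate 2. The 1 probe set of Foxp3 gave only 7.18 to 53.5, below the limit for dim genes (a signal of about 71.2) on every array. Replicate 1 arrays differed from replicate 2 arrays in a shared way. The poly-A control RNAs were 1.10 to 1.98 times as bright on replicate 1 as on replicate 2 of the same group. Differences within each replicate number are therefore printed for the brightest probe set of every gene of the set in WT ATL1222 against WT vehicle. For the other comparisons they are printed for some genes only, and the plot of these differences shows every probe set in all comparisons. A fit with the replicate number as a block is given where it changed a call.

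Levels are array signals on the linear scale as deposited, and differences are log2 fold changes of log2(signal + 16), tested with limma and adjusted over all genes by the Benjamini-Hochberg method. In the KO vehicle comparison with WT vehicle 0 of the 7 genes passed an adjusted p of 0.05, beside 0.0275% of all genes tested, and 1 had an unadjusted p under 0.05, beside 3.88%. In WT ATL1222 against WT vehicle 0 of 7 passed, beside 0.211%, and 1 had an unadjusted p under 0.05, beside 4.99%. In WT ATL1222 against KO vehicle 0 of 7 passed, beside 0.980%, and 2 had an unadjusted p under 0.05, beside 8.46%. With the replicate block the counts were 0, 0 and 2 of 7, beside 0.0824%, 0.715% and 2.35% of all genes, and the 2 were Klrg1 and Nrp1.

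**Figure D1:**
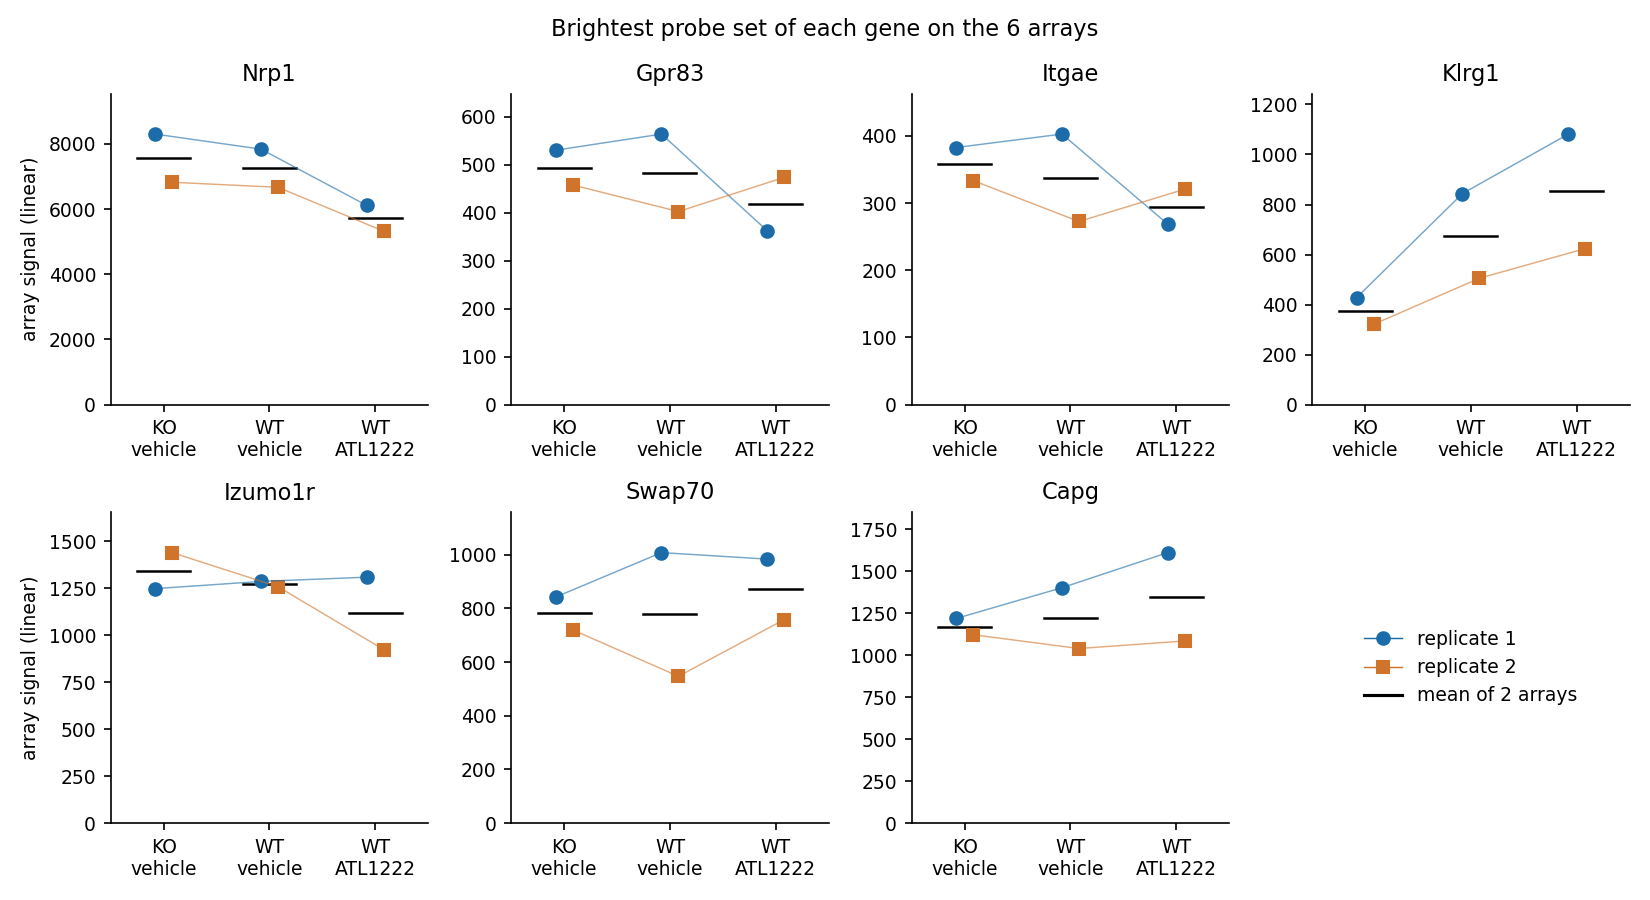
Array signal (linear, y axis) of the brightest probe set of each of the 7 genes in KO vehicle, WT vehicle and WT ATL1222 (x axis). Circles and squares are replicates 1 and 2, thin lines join arrays of the same replicate number, and bars are means of 2 arrays. Klrg1 climbs along both lines, Nrp1 is lowest with ATL1222 on both, and the lines of Gpr83 and Itgae cross.

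By the brightest probe sets, Klrg1 had the widest differences of the 7 genes in both comparisons with KO vehicle. It encodes a receptor with an inhibitory motif that binds cadherins and, in mouse Tregs, marks terminally differentiated cells. Its signals were 843.8 and 505.3 in WT vehicle, 427.7 and 320.9 in KO vehicle and 1082 and 623.9 with ATL1222, for replicates 1 and 2 in that order. Both KO vehicle arrays lay below all 4 others, and the WT vehicle and WT ATL1222 arrays overlapped. Within each replicate number the order was KO vehicle, WT vehicle, WT ATL1222 from low to high.

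Between WT ATL1222 (mean signal 852.7 ± 324, SD, n = 2) and KO vehicle (374.3 ± 75.5, n = 2) Klrg1 differed 2.17-fold, a log2 fold change of 1.12 ± 0.28 (SE), with a limma adjusted p = 0.0977. The log2 difference was 1.31 within replicate 1 and 0.93 within replicate 2. With the replicate block Klrg1 was higher with ATL1222 than in KO vehicle at adjusted p = 0.00127 (log2 1.12 ± 0.16). Over 17 alternative settings, that block included, the adjusted p ran from 0.00127 to 0.715, and it was below 0.05 in 6 of them. With 1 array left out it was 0.0402 and 0.0351 without WT vehicle replicates 1 and 2, 0.0859 and 0.393 without KO vehicle replicates 1 and 2, and 0.715 and 0.0217 without WT ATL1222 replicates 1 and 2. Where a compared group is left with 1 array, that array is assumed to vary like the other groups. The log2 difference was 0.73 without WT ATL1222 replicate 1. In WT vehicle the mean was 674.5 ± 239, so KO vehicle lay 1.73-fold lower (log2 -0.79 ± 0.28, limma adjusted p = 1.00, with an unadjusted p = 0.0128). Within replicates 1 and 2 that difference was -0.95 and -0.63, and with the block its adjusted p was 0.146. Without WT vehicle replicate 1 it was -0.43.

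The step from WT vehicle to WT ATL1222 in Klrg1 was smaller, at log2 0.32 ± 0.28 (95% interval -0.27 to 0.92, limma adjusted p = 0.998), and 0.35 and 0.30 within the replicate numbers. It changed sign when WT vehicle replicate 2 was left out (-0.04) and when WT ATL1222 replicate 1 was left out (-0.06). Klrg1 is also a gene of natural killer and CD8 T cells. The summed signal of 6 markers of those cells was 626.8 to 698.3 in KO vehicle, 497.6 to 724.6 in WT vehicle and 477.4 to 601.7 in WT ATL1222. Of the 6 markers, 3 were too dim to be tested, among them Ncr1, which defines natural killer cells (2.82 to 61.7), and Cd8a (45.5 to 106.5). The 3 that were tested, Cd8b1, Eomes and Nkg7, read 118.4 to 249.1, 124.8 to 213.3 and 81.2 to 193.4. Cd8b1, which encodes a chain of CD8, had higher signals in KO vehicle (249.1 and 183.8) than in WT vehicle (118.7 and 118.4), at log2 0.77 ± 0.30 (limma unadjusted p = 0.0231, adjusted p = 1.00). Nkg7 went the other way, with 113.0 and 96.9 in KO vehicle and 193.4 and 122.6 in WT vehicle, at log2 -0.50 ± 0.38 (limma unadjusted p = 0.208). For Eomes the same difference was log2 -0.03 ± 0.33. The part of these cells in the Klrg1 values was not tested. In a mixed sample fewer cells of a type and less RNA per cell cannot be told apart.

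Nrp1 was lower with the agonist on each of its 4 probe sets, by a modest amount. The brightest probe set, 1448943_at, read 7836 and 6667 in WT vehicle, 8299 and 6821 in KO vehicle and 6109 and 5319 with ATL1222. Both WT ATL1222 arrays lay below the 4 vehicle arrays, while the vehicle groups of both genotypes overlapped. Probe set 1418084_at read 6420 and 5859 in WT vehicle, 6345 and 5521 in KO vehicle and 4391 and 4416 with ATL1222. Probe set 1457198_at read 850.7 and 857.6 in WT vehicle, 797.5 and 979.7 in KO vehicle and 653.3 and 648.7 with ATL1222. On these probe sets too the WT ATL1222 arrays were the lowest of the 6. On 1448944_at, which read 3712 and 3201 in WT vehicle, 3897 and 2825 in KO vehicle and 3110 and 2012 with ATL1222, KO vehicle replicate 2 fell below WT ATL1222 replicate 1.

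**Figure D2:**
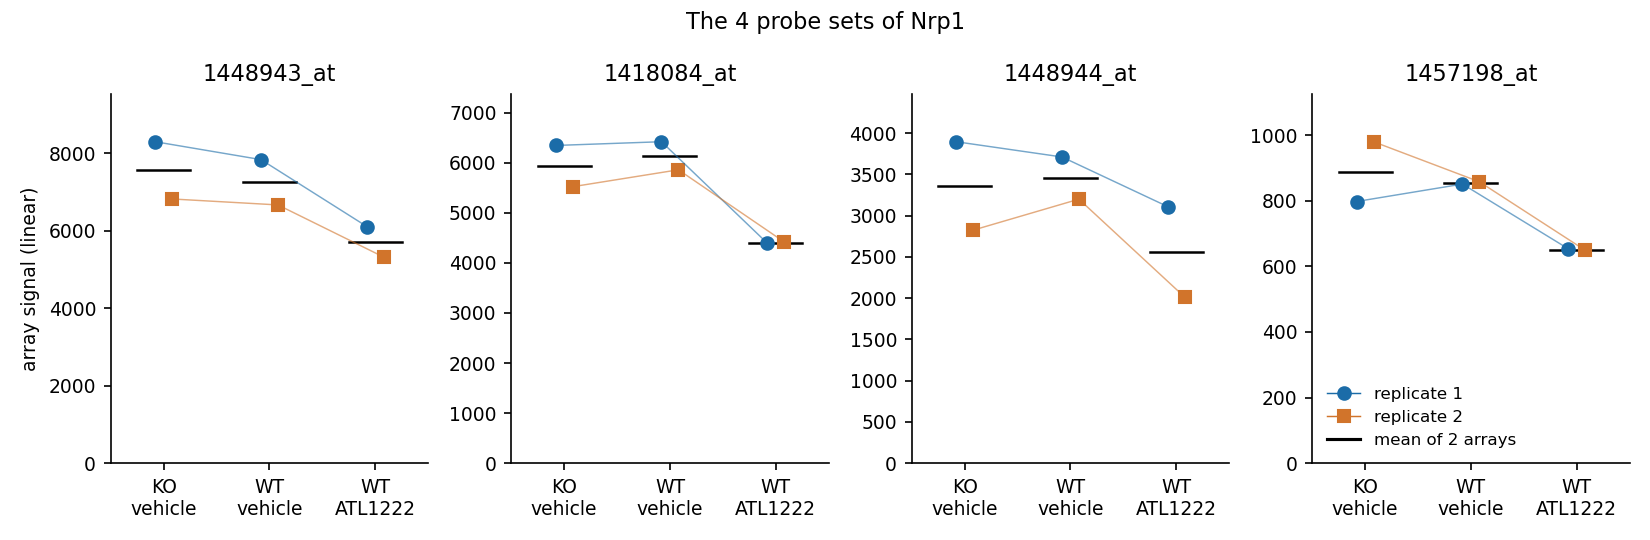
Array signal (linear, y axis) of the 4 probe sets of Nrp1 in the 3 groups (x axis). Circles and squares are replicates 1 and 2, lines join arrays of 1 replicate number and bars are means of 2 arrays. Both WT ATL1222 arrays lie below both WT vehicle arrays in every panel, with means of 5714 against 7252 on the brightest probe set.

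Set against WT vehicle (mean 7252 ± 827, n = 2), the brightest probe set of Nrp1 was 1.27-fold lower with ATL1222 (5714 ± 558, n = 2), a log2 fold change of -0.34 ± 0.14 with a limma adjusted p = 0.903 and an unadjusted p = 0.0336. When every probe set was tested separately, the 4 log2 fold changes ran from -0.48 to -0.34 and the adjusted p from 0.661 to 1.00. Of the 8 differences within a replicate number, 8 were below 0, from -0.67 to -0.25. The 4 probe sets are assigned to 1 gene and read the same 6 RNA samples, so they are not replicates. Without WT vehicle replicate 1 the log2 fold change of the brightest was -0.23.

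Against KO vehicle (7560 ± 1045, n = 2) the brightest probe set of Nrp1 was 1.32-fold lower with ATL1222, at log2 -0.40 ± 0.14 (limma adjusted p = 0.373). With the replicate block Nrp1 was lower at adjusted p = 0.0340 (log2 -0.40 ± 0.09). No other alternative setting that kept all arrays of both groups gave a pass. With arrays scaled to the same median and no block, the difference was -0.27 (limma adjusted p = 0.998). Without the block and without KO vehicle replicate 1 the difference was -0.26. In the blocked fit of single probe sets the same one did not pass (adjusted p = 0.0867). Again 8 of 8 differences within a replicate number were below 0, from -0.58 to -0.28. Between KO vehicle and WT vehicle Nrp1 had log2 0.06 ± 0.14 (95% interval -0.25 to 0.37), and its 8 differences within a replicate number were split, with 4 below and 4 above 0.

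Nrp1 is also expressed by dendritic cells, including plasmacytoid ones. The summed signal of 5 dendritic cell markers was 255.2 to 306.9 in WT vehicle, 208.6 to 267.2 for KO vehicle and 275.7 to 363.6 with ATL1222. Siglech, which marks plasmacytoid dendritic cells in mice, was at 9.09 to 53.2, and 4 of the 5 markers were too dim to be tested. The part of these cells in the Nrp1 values was not tested.

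Gpr83 gave no group difference beyond the spread of its replicates. It encodes a G protein-coupled receptor whose transcript depends on Foxp3 in mouse T cells. Probe set 1423415_at read 563.9 and 402.4 in WT vehicle, 530.3 and 457.9 in KO vehicle and 362.2 and 473.8 with ATL1222. The lowest array was WT ATL1222 replicate 1, and replicate 2 of that group lay among the vehicle arrays. The log2 fold change with ATL1222 was -0.19 ± 0.22 against WT vehicle (95% interval -0.67 to 0.28, limma adjusted p = 0.998), with -0.62 within replicate 1 and 0.23 within replicate 2.

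The other probe set of Gpr83, 1439569_at, read 431.4 and 396.4 in WT vehicle, 372.3 and 461.4 in KO vehicle and 271.1 and 402.6 with ATL1222. It had the same lowest array. Its log2 fold change with ATL1222 was -0.31 ± 0.24 against WT vehicle, and both probe sets correlated over the 6 arrays with r = 0.639. In KO vehicle Gpr83 had log2 0.05 ± 0.22 against WT vehicle (95% interval -0.43 to 0.52).

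Itgae, whose product pairs with the integrin chain of Itgb7 to bind E-cadherin on epithelial cells, was read differently by its 2 probe sets. Probe set 1447541_s_at read 402.8 and 272.7 in WT vehicle, 382.8 and 333.7 in KO vehicle and 268.7 and 320.8 with ATL1222. Its groups overlapped except for WT ATL1222 against KO vehicle, where both ATL1222 arrays were lower (log2 -0.27 ± 0.24, limma adjusted p = 0.865). Probe set 1449216_at read 194.3 and 229.7 in WT vehicle, 163.2 and 142.8 in KO vehicle and 163.8 and 135.9 with ATL1222. There both WT vehicle arrays lay above the other 4.

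On that second probe set Itgae had log2 -0.43 ± 0.29 in KO vehicle and -0.46 ± 0.29 with ATL1222, both against WT vehicle, and neither passed (adjusted p = 1.00 in both). These comparisons share the WT vehicle arrays. The probe sets of Itgae did not vary together over the 6 arrays (r = -0.154), and the suffix of the first one marks a probe set that can match several transcripts. With the log2 values of both averaged, the KO vehicle difference turned from 0.10 ± 0.24 to -0.16. Itgb7, the partner chain, had group means of 2200 ± 262 in WT vehicle, 2492 ± 134 for KO vehicle and 2222 ± 258 with ATL1222, with log2 0.18 ± 0.15 in KO vehicle and 0.01 ± 0.15 with ATL1222 against WT vehicle.

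Izumo1r encodes a folate receptor relative that is abundant on mouse Tregs and serves on the egg as the receptor for sperm Izumo1. Its 1 probe set, 1420700_s_at, read 1287 and 1259 in WT vehicle, 1248 and 1440 in KO vehicle and 1309 and 923.5 with ATL1222. The suffix marks a probe set that can match several transcripts, and no other probe set of Izumo1r was there to compare. WT ATL1222 replicate 2 stood below the other 5 arrays, which lay between 1248 and 1440. The log2 fold change was -0.21 ± 0.18 with ATL1222 against WT vehicle (95% interval -0.59 to 0.17) and 0.07 ± 0.18 in KO vehicle (95% interval -0.31 to 0.46). With WT ATL1222 replicate 2 left out, the first of these was 0.04.

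Swap70 and Capg, the cytoskeletal members, had no difference past the threshold. Swap70 encodes a protein that binds actin filaments and phosphoinositides and acts on the GTPase Rac. Probe set 1434225_at of Swap70 read 1007 and 546.8 in WT vehicle, 841.8 and 719.8 in KO vehicle and 983.1 and 758.1 with ATL1222. The WT vehicle arrays were the highest and the lowest of the 6. Its log2 fold change was 0.21 ± 0.24 with ATL1222 (95% interval -0.31 to 0.74) and 0.07 ± 0.24 in KO vehicle (95% interval -0.46 to 0.59), both against WT vehicle.

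The other probe set of Swap70, 1423543_at, read 487.6 and 456.1 in WT vehicle, 622.1 and 534.1 in KO vehicle and 718.6 and 520.7 with ATL1222. Here both WT vehicle arrays were the lowest of the 6. The log2 fold change was 0.28 ± 0.21 in KO vehicle and 0.36 ± 0.21 with ATL1222 against WT vehicle, with an unadjusted p of 0.198 and 0.103 from limma and an adjusted p = 1.00 in both.

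Capg encodes a member of the gelsolin family that caps the fast-growing ends of actin filaments without cutting them. Probe set 1450355_a_at read 1401 and 1039 in WT vehicle, 1218 and 1121 in KO vehicle and 1610 and 1084 with ATL1222. Replicate 1 was higher than replicate 2 in all 3 groups, by 1.35, 1.09 and 1.49 times, and the groups overlapped. The log2 fold change of Capg was 0.13 ± 0.20 with ATL1222 (95% interval -0.30 to 0.56) and -0.05 ± 0.20 in KO vehicle (95% interval -0.47 to 0.38) against WT vehicle. The dim probe set 1447803_x_at, whose suffix marks probes that can cross-hybridize, read 102.2 to 244.8 and gave -0.47 ± 0.35 and -0.28 ± 0.35 for the same comparisons.

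**Figure D3:**
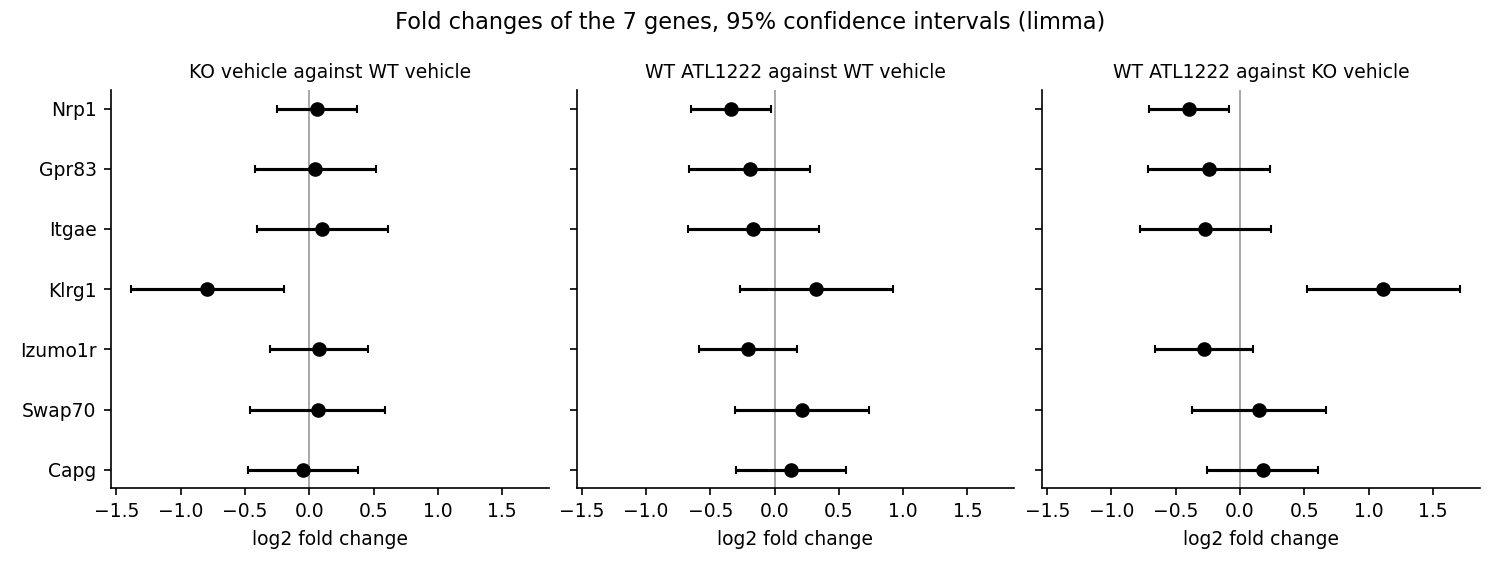
Log2 fold change (x axis) of the 7 genes (y axis) in the 3 comparisons, by the brightest probe set. Points are limma estimates from 2 arrays a group and bars their 95% confidence intervals without adjustment for the number of genes. Klrg1 in KO vehicle (-0.79), Nrp1 with ATL1222 (-0.34 against WT vehicle and -0.40 against KO vehicle) and Klrg1 in WT ATL1222 against KO vehicle (1.12) have intervals that leave out 0.

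Over all 14 probe sets, groups did not overlap for 1 higher and 2 lower in KO vehicle against WT vehicle, beside 16.2% higher and 12.5% lower among the 27022 probe sets tested. The higher one was 1 of Swap70 and the lower ones those of Klrg1 and Itgae. In WT ATL1222 against WT vehicle 1 was higher and 5 lower, beside 13.6% and 16.3%, the higher one was 1 of Swap70, and the lower ones were the 4 of Nrp1 and 1 of Itgae. In WT ATL1222 against KO vehicle 1 was higher and 4 lower, beside 14.6% and 20.9%, the higher one was that of Klrg1, and the lower ones were 3 of Nrp1 and 1 of Itgae. Tested separately without the block, 0 of the 14 probe sets passed in any comparison, beside 0%, 0.0333% and 0.326% of all probe sets in the same order. With the replicate block only that of Klrg1 passed, in WT ATL1222 against KO vehicle (limma adjusted p = 0.00428).

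**Figure D4:**
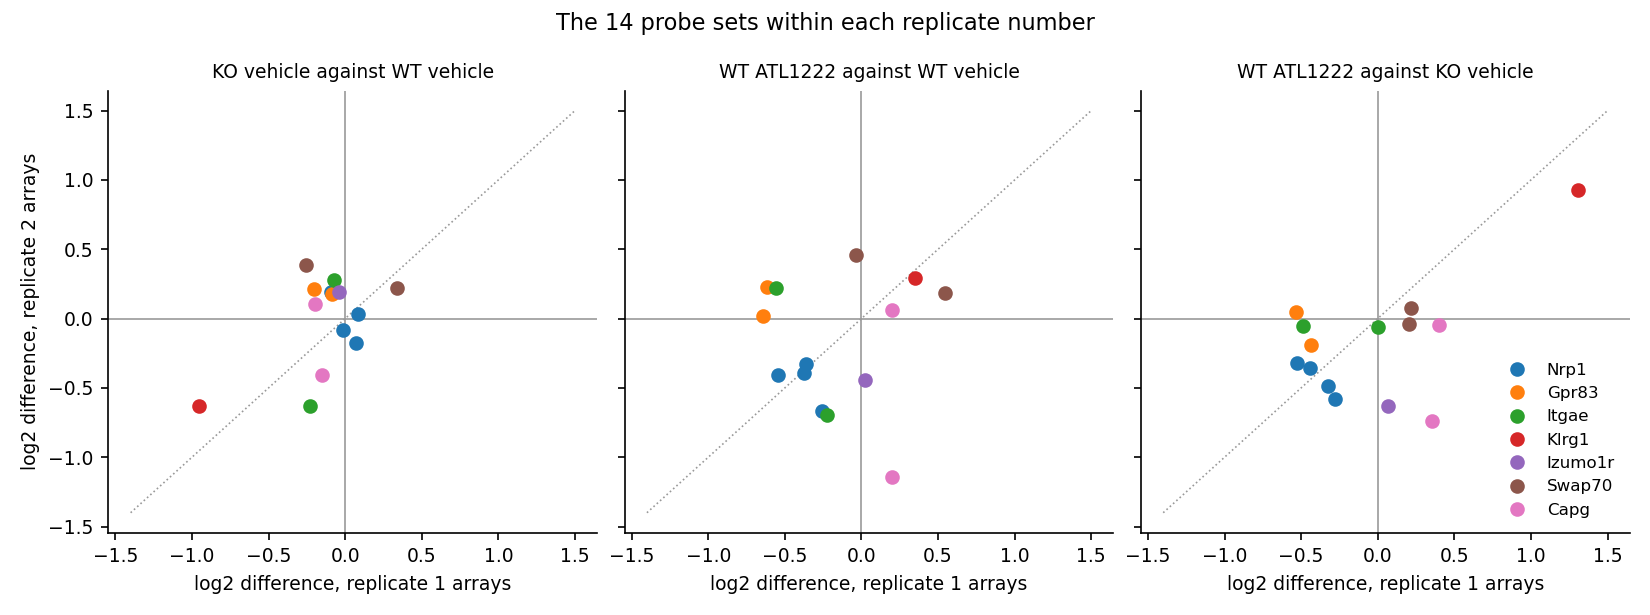
Log2 difference between groups within replicate 2 arrays (y axis) against that within replicate 1 arrays (x axis) for the 14 probe sets, coloured by gene, in the 3 comparisons. The dotted line marks equal differences. Klrg1 sits at 1.31 and 0.93 in the right panel, the 4 probe sets of Nrp1 lie in the lower left quadrant of the middle and right panels, and Gpr83 and Itgae have points on both sides of 0.

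The median log2 fold change of the 7 genes was 0.06 in KO vehicle against WT vehicle, beside 0.00 over all genes tested. It was -0.17 in WT ATL1222 against WT vehicle, beside -0.01, and -0.24 in WT ATL1222 against KO vehicle, beside -0.02. With ATL1222, 4 of the 7 had lower means than in WT vehicle (Nrp1, Gpr83, Itgae and Izumo1r) and 3 had higher means (Klrg1, Swap70 and Capg). The same 4 were lower and the same 3 higher against KO vehicle, but both comparisons use the ATL1222 arrays. Of the 4, only Nrp1 was below WT vehicle within both replicate numbers (log2 -0.36 and -0.33 for replicates 1 and 2). The same differences were -0.62 and 0.23 for Gpr83, -0.56 and 0.22 for Itgae, and 0.02 and -0.44 for Izumo1r. For the 3 with higher means they were 0.35 and 0.30 for Klrg1, -0.03 and 0.46 for Swap70, and 0.20 and 0.06 for Capg.

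Of 30 other genes listed for the Treg signature, 27 were on the array and 23 were bright enough to be tested. In KO vehicle against WT vehicle 0 passed, beside 0.0275% of all genes tested, and 19 of the 23 had lower means. The median log2 fold change of the 23 was -0.28, beside 0.00 over all genes tested. With ATL1222 against WT vehicle 1 rose, beside 0.211% (4 with the replicate block, beside 0.715%). Higher means were found for 18, with a median of 0.39, beside -0.01 over all genes tested. Against KO vehicle 6 rose and 0 fell, beside 0.980%, with a median of 0.44, beside -0.02 over all genes tested. With the replicate block 10 rose, beside 2.35%. Any pair of these comparisons shares a group of arrays, so their directions are not independent. The list was chosen with earlier results of these data known, so its counts are not an independent test.

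The gene that rose in both ATL1222 comparisons was Tnfrsf9, which encodes the co-stimulatory receptor 4-1BB. Its mean signal was 493.4 ± 82.2 in WT vehicle, 359.9 ± 28.6 for KO vehicle and 1304 ± 461 with ATL1222 (log2 1.34 ± 0.23 against WT vehicle, limma adjusted p = 0.0307). The other 5 that rose against KO vehicle were Tnfrsf18, the GITR gene (log2 1.11 ± 0.17), Tnfrsf4, the OX40 gene (0.98 ± 0.18), the inhibitory receptor gene Ctla4 (0.75 ± 0.16), Penk, which encodes the enkephalin precursor (1.54 ± 0.28), and the zinc finger gene Plagl1 (1.24 ± 0.20), with limma adjusted p from 0.00358 to 0.0390. Against WT vehicle these 5 did not pass, with adjusted p from 0.0850 to 0.761. With the replicate block 3 of them rose against WT vehicle too, Tnfrsf18 (limma adjusted p = 0.00386), Tnfrsf4 (0.00496) and Plagl1 (0.000696).

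**Figure D5:**
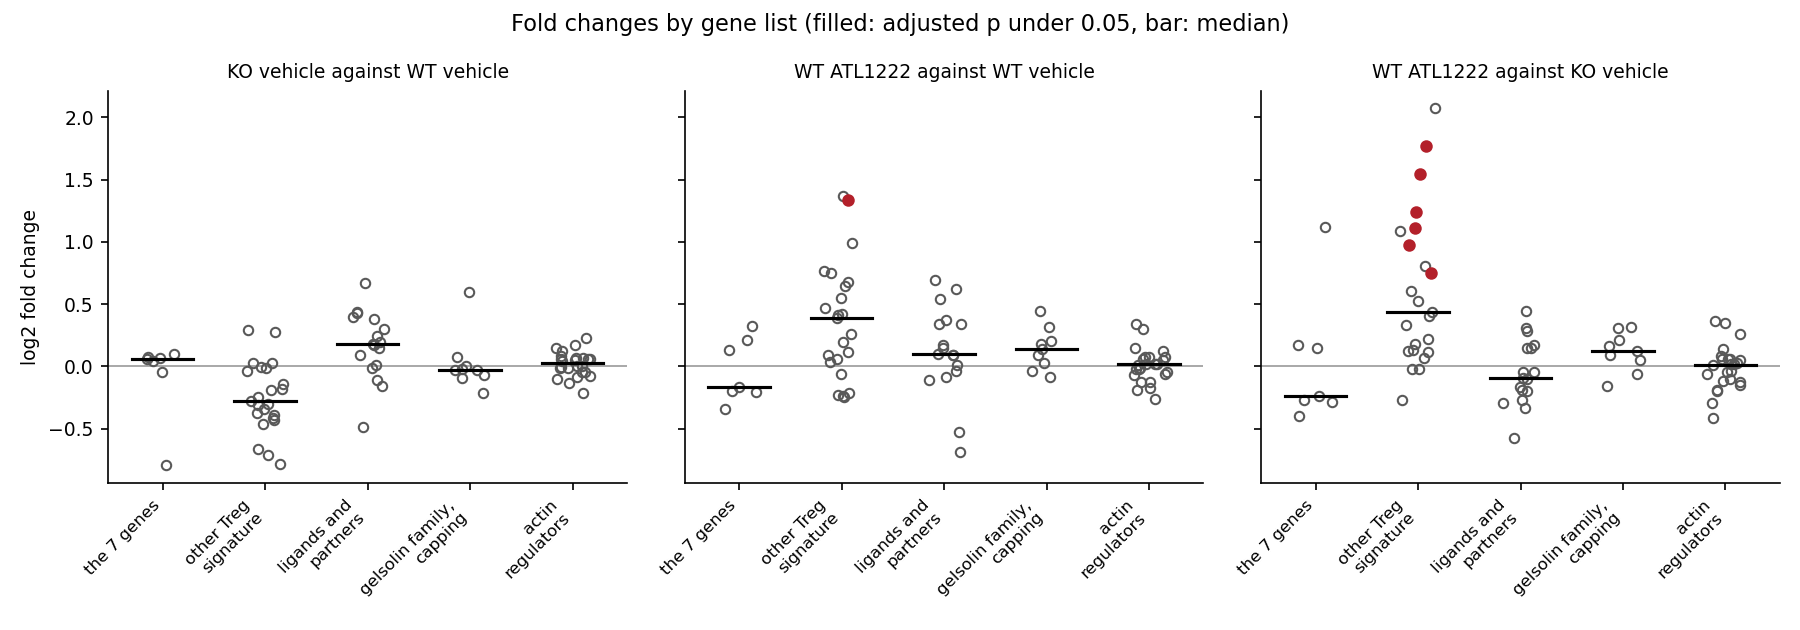
Log2 fold change (y axis) of the tested genes of 5 lists (x axis) in the 3 comparisons. Each circle is a gene by its brightest probe set, filled where the adjusted p was under 0.05, and bars are list medians. The filled circles, 1 in the middle panel and 6 in the right panel, all belong to the other Treg signature genes, whose median in the right panel was 0.44 beside -0.24 for the 7 genes. All lists were chosen with earlier results of these data known.

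Of 24 genes listed as ligands and partners of the 7 products, 17 were bright enough to be tested and 0 passed in any comparison, with medians of 0.18, 0.10 and -0.09 in the order used above. The brightest were Itgb7, Ptpn11 and Inpp5d, the last 2 encoding phosphatases recruited by inhibitory receptors such as Klrg1. Inpp5d read 476.9 and 497.2 in WT vehicle, 699.7 and 481.4 in KO vehicle and 802.6 and 792.2 with ATL1222. Its ATL1222 arrays were the highest, at log2 0.69 ± 0.20 against WT vehicle, but it did not pass (limma adjusted p = 0.394, unadjusted p = 0.00354). Cdh1, the E-cadherin gene, was at 2.13 to 53.1 and too dim to be tested.

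Of 10 genes of the gelsolin family and of actin capping, 9 were tested and 0 passed in any comparison, with medians of -0.03, 0.14 and 0.12. The capping protein genes Capza1, Capza2 and Capzb, the brightest of them, had log2 fold changes from -0.09 to -0.02 in KO vehicle and from -0.04 to 0.14 with ATL1222 against WT vehicle. Of 25 further actin regulators, 24 were tested and 0 passed, with medians of 0.03, 0.02 and 0.01. Of these 24, 4 had an unadjusted p under 0.05 in WT ATL1222 against KO vehicle, beside 8.46% of all genes tested. Their limma adjusted p ran from 0.271 to 0.533. They were Evl (log2 -0.41 ± 0.13) and Dock2 (-0.30 ± 0.13), and Diaph1 (0.36 ± 0.14) and Actg1 (0.35 ± 0.14). Def6, the relative of Swap70, had log2 0.17 ± 0.17 in KO vehicle and 0.02 ± 0.17 with ATL1222.

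The genes whose log2 values followed each member most closely over the 6 arrays are given as a description, since 6 arrays leave many close matches by the number of genes searched and all share the same scaling. Nrp1 was followed most closely by Hexdc (Pearson r = 0.999) and Zfp560 (0.989). Hexdc read 29.5 to 130.0 and Zfp560 541.1 to 781.4. Klrg1 was followed by Mbd2 (0.997), which encodes a reader of methylated DNA, and Arf4 (0.991), which encodes a small GTPase of vesicle transport. Mbd2 read 2467 and 2294 in KO vehicle, 2948 and 2547 in WT vehicle, and 3235 and 2747 in WT ATL1222.

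Gpr83 was followed by Ttc9c (0.988) and Tbc1d20 (0.986), Itgae by Mta3 (0.996) and Commd7 (0.989), Izumo1r by Pou5f2 (0.979) and Sez6l (0.975), Swap70 by Spcs3 (0.997) and Nucb2 (0.993), and Capg by Hnrnpa2b1 (0.993) and Fars2 (0.990). The number of genes with r above 0.95 ran from 14 for Gpr83 to 72 for Klrg1. Among the 7 themselves, by their brightest probe sets, Gpr83 and Itgae had r = 0.974 and Swap70 and Capg r = 0.867, whereas Gpr83 and Izumo1r, the neighbours on chromosome 9, had r = -0.127. Swap70 and Capg, like Nrp1 and Klrg1, were brighter on replicate 1 than on replicate 2 in all 3 groups. The probe set of Itgae used here had r = -0.154 with the other one.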

How the data were processed

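Each array was hybridised with labelled RNA made from 1 µg of total RNA, per the labels' protocols. The authors deposited 1 intensity for each of 45101 probe sets on each of the 6 arrays, on a linear scale. Per the submitters' processing notes the authors used GCOS. The sources used here name neither its version nor the summarization method. In the deposited values every array had the same mean with the highest and lowest 2% of probe sets left out, and this scaling was kept. The level of the receptor's own gene is not reported here. Detection calls and probe-level data were not used here. The number of arrays limits the precision (median SE of a log2 difference 0.231).

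Control probe sets (64) were dropped. The platform annotation gave a single symbol to 34945 of the others and several to 932, which named no gene, and it did not list 9160. Symbols were updated by Entrez identifier (34741 matched, mouse gene table of GRCm38.p6). Each gene was represented by its brightest probe set, values were taken as log2(signal + 16), which understates changes of dim genes, and the lowest 40% of genes by mean were left out. limma 3.58.1 in R 4.3.3 fitted all 6 arrays with a mean-variance trend, adjusted p-values by Benjamini-Hochberg over all genes tested, and used a threshold of 0.05. The fit was tested on simulated data. These had independent noise and larger changes than those of the members, so the test does not cover shared replicate differences or small changes. With 2 arrays a group, the smallest two-sided p of an exact permutation test is 0.333.

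Same-numbered arrays deviated from their group means together (correlations of 0.229, 0.234 and 0.150 over 10916 genes for the 3 pairs of groups). The numbers were therefore taken to pair the arrays in the blocked fit and in the differences within a replicate number. The labels state no shared day or animal, and the main fit had no block. The members and gene lists were chosen with earlier results of these data known. All probe sets of the 7 genes were named, with the 2 genes most like each over the arrays, list genes that passed and the brightest of a list; further genes were named after their values were seen.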

Additional observations from a re-analysis of the deposited data

How the results depend on the processing

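The number of all genes past the threshold was 3 in KO vehicle against WT vehicle, 23 in WT ATL1222 against WT vehicle and 107 in WT ATL1222 against KO vehicle. In the same order it was 9, 78 and 257 with the replicate block, 3, 14 and 70 with no filter on dim genes, 3, 35 and 126 with the lowest 60% left out, 0, 3 and 44 with probe sets averaged, 0, 9 and 88 with every probe set tested separately, 0, 0 and 3 with no variance trend, 8, 27 and 100 with arrays scaled to the same median, and 3, 40 and 140 with only the 4 arrays compared. With single arrays left out it ranged from 3 to 7, from 5 to 39 and from 39 to 132. The number of the 7 genes past the threshold was 0 in each comparison and changed only in WT ATL1222 against KO vehicle: to 2 with the block (Klrg1 and Nrp1), to 1 with the same median and with only the 4 arrays (Klrg1), and to between 0 and 1 with single arrays left out. The block changed no other call of the 7 genes. Scaling to the same median moved the median log2 fold change of all genes by -0.04, 0.09 and 0.13. With probe sets averaged, Itgae turned to -0.16 in KO vehicle, and Capg to -0.17 and -0.0080 with ATL1222 against WT vehicle and KO vehicle.

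With single arrays left out, log2 fold changes that changed sign in KO vehicle against WT vehicle ranged from -0.084 to 0.20 for Nrp1, -0.19 to 0.28 for Gpr83, -0.17 to 0.37 for Itgae, -0.027 to 0.18 for Izumo1r, -0.37 to 0.50 for Swap70 and -0.26 to 0.17 for Capg. In WT ATL1222 against WT vehicle they ranged from -0.43 to 0.041 for Gpr83, -0.44 to 0.10 for Itgae, -0.065 to 0.71 for Klrg1, -0.46 to 0.041 for Izumo1r, -0.22 to 0.64 for Swap70 and -0.15 to 0.41 for Capg. In WT ATL1222 against KO vehicle they ranged from -0.037 to 0.33 for Swap70 and from -0.11 to 0.46 for Capg. The cause of these changes was not tested. Under all 17 alternatives the direction was kept by Nrp1 in both ATL1222 comparisons, by Klrg1 in both KO vehicle comparisons, and by Gpr83, Itgae and Izumo1r in WT ATL1222 against KO vehicle. Sizes moved: Klrg1 ranged from -1.15 to -0.43 in KO vehicle against WT vehicle and from 0.73 to 1.51 in WT ATL1222 against KO vehicle, and Nrp1 from -0.46 to -0.23 and from -0.54 to -0.26 with ATL1222 against WT vehicle and KO vehicle. With 2 arrays a group, the median standard error of 0.231 limits what could be detected.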
